A study of Mus musculus with 12 samples.

Results

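The MHC class II and class I genes are the antigen presentation genes of the liver that were followed here through 3 ages in bulk RNA-seq. They were chosen by name, with no measured value in the rule, and comprised 10 of the 53465 genes in the count table. H2-Aa, H2-Ab1, H2-Eb1, H2-DMa, H2-DMb1, Cd74 and Ciita made up the 7 class II genes, and H2-K1, H2-D1 and B2m the 3 class I genes. Each of the 12 libraries came from the liver of a different C57BL/6N mouse, with 4 livers from young (3 months), 4 from middle-aged (12 months) and 4 from aged (18 months) animals. No allele or treatment other than age separated the groups, and the study's methods name male mice throughout. The extraction text in the labels covers young and old livers only, and the study also drew on a public atlas for its 3-age RNA-seq, so how these 12 livers were prepared is uncertain.

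MHC molecules display peptides on the cell surface to T cells. Class I molecules pair a heavy chain, such as those of H2-K1 and H2-D1, with beta-2 microglobulin, the product of B2m, and present peptides made inside nearly every nucleated cell, hepatocytes included. Class II molecules are pairs of an alpha and a beta chain that present peptides taken up from outside. They are made mainly by professional antigen-presenting cells, which in the liver include Kupffer cells, dendritic cells, B cells and, at lower levels, sinusoidal endothelial cells. Cd74 encodes the invariant chain that blocks the class II groove during assembly, H2-DMa and H2-DMb1 encode the chaperone that exchanges its remnant for peptide, and Ciita encodes the transactivator without which class II genes are barely transcribed. Interferon gamma raises Ciita, class II and class I together.

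Class II promoters carry a conserved module with an X box, bound by the RFX complex, and a Y box, an inverted CCAAT sequence bound by NF-Y, on which CIITA assembles. Class I promoters carry an NF-kappaB site in their enhancer A next to an interferon response element. RefSeq promoter windows (GRCm38.p6, 250 bases before to 50 after a start site) were at hand for H2-Aa, H2-Eb1, H2-DMa, H2-DMb1, H2-K1, H2-D1 and B2m, and not for H2-Ab1, Cd74 or Ciita. The first stretches are from the class II promoters of H2-Aa and H2-Eb1, the chain genes with a window, and from H2-Ob, a relative of low count. Capitals mark the Y box core TGATTGG and, upstream of it in H2-Eb1 and H2-Ob, part of an X box, CNNATGATG.
H2-Aa, chr17:34287859-34287913, minus strand: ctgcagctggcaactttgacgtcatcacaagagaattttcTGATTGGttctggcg
H2-Eb1, chr17:34305771-34305820, plus strand: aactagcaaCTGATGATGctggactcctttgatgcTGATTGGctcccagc
H2-Ob, chr17:34238813-34238860, plus strand: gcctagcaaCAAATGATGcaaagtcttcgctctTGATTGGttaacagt

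The second set is from class I promoters, H2-K1 and its relative H2-Q10, whose level per kilobase of exon in young livers (5775 normalised counts) was above that of H2-K1. Capitals mark GGGATTCCC, an NF-kappaB-like sequence, in H2-K1 alone of these, and the interferon response core TTTCACTTC in both.
H2-K1, chr17:34000421-34000466, minus strand: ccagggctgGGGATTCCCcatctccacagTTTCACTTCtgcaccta
H2-Q10, chr17:35469905-35469950, plus strand: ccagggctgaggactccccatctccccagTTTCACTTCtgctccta

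These letters were picked after the members' promoters had been read, so their presence is a description of the sequences. Searched on both strands of all 32851 windows, TGATTGG was in 7.82%, CNNATGATG in 2.75%, GGGATTCCC in 0.353% and TTTCACTTC in 0.505%. Both class II sequences stood in 57 windows of the genome, those of H2-Eb1, H2-DMb1, H2-DMb2 and H2-Ob among them, and both class I sequences in 5, which included H2-D1 and the alternative starts of H2-K1. TGATTGG was also in the windows of the class I genes H2-K1 and H2-D1, read on the other strand, so it does not separate the classes. The windows of H2-DMa and B2m held none of the 4 sequences.

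The libraries held 8124312 to 10527159 gene counts, at which 3 counts equal 0.285 to 0.369 CPM. Synthetic spike-in RNA made up 3.5 to 10.6% of all counts in young, 1.59 to 2.73% in middle-aged and 1.87 to 3.51% in aged livers, and mitochondrial transcripts 7.40 to 19.2%, 6.45 to 9.03% and 5.48 to 7.53% of gene counts. Both were thus higher in most young livers than in older ones, and their part in the differences below was not tested. The summed normalised count of 6 hepatocyte markers (Alb, Apoa1, Ttr, Cps1, Hnf4a and Tat) lay between 715277 and 962980 in the 12 livers, in accord with the tissue named in the labels. Young replicate 3 and middle-aged replicate 1 stood apart, with 22284 and 19982 genes detected against 16361 to 17563 in the other 10 livers. Values below are counts divided by DESeq2 size factors (normalised counts), and a change was called where DESeq2's Wald test, fitted across all genes of the 12 livers, gave an adjusted p under 0.05.

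Class I transcripts were abundant and class II transcripts scarce in every liver. Counts were also divided by kilobases of annotated exon, pooled over all transcripts of a gene. Mean normalised counts per kilobase in young livers were 14388 ± 753 for B2m, 4527 ± 313 for H2-K1 and 2193 ± 235 for H2-D1 (SD, n = 4). On that scale Cd74 had 645 ± 246, H2-Eb1 236 ± 120, H2-Ab1 196 ± 102 and H2-Aa 135 ± 65.0. The peptide exchange chaperone was lower again, with 27.1 ± 13.4 for H2-DMb1 and 14.0 ± 4.90 for H2-DMa, and Ciita was lowest at 2.01 ± 0.965. The SDs of H2-Eb1, H2-Ab1 and H2-Aa overlap, as do those of H2-DMb1 and H2-DMa, but within livers the order was steadier. Per kilobase H2-Aa had 0.525 to 0.797 of the level of H2-Ab1 in the 12 livers, and in all 4 young livers H2-Eb1 lay above H2-Ab1 and H2-DMb1 above H2-DMa. The pooled length need not be that of the mRNA present, and these orders depend on it. Without it, H2-Aa had 0.776 to 1.18 of H2-Ab1, and H2-Eb1 had 0.888 to 0.954 of it in young livers. Young means were then 48.4 for H2-DMa and 45.5 for H2-DMb1, and 12373 for B2m and 13302 for H2-K1. H2-Aa, H2-Ab1, H2-Eb1 and Cd74 together made up 0.0101 to 0.0427% of gene counts.

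To ask how antigen presentation transcripts differ with age, aged livers were first compared with young ones. All 7 class II genes had lower means in aged livers, and 2 of them passed the test: H2-Ab1, the beta chain of the A molecule, and Cd74, the invariant chain. Over all genes tested, 3.58% were called in this comparison, 1.71% with a lower level, and 50.1% lay below 0. None of the 3 class I genes was called. These differences are relative to the bulk of genes: scaling to total counts or to spike-in RNA moved the median of 11804 genes by 0.12 and 1.16 in this comparison, and relative to that median all 7 class II genes stayed below 0 under both, although the spike-in values of Cd74, H2-DMa and Ciita themselves were above 0 and that of H2-Ab1 was -0.13, with neither H2-Ab1 nor Cd74 called (DESeq2 adjusted p = 0.826 and 0.794). Under spike-in scaling H2-K1, H2-D1 and B2m were called higher (DESeq2 adjusted p = 0.0217, 0.0199 and 0.0306), where 9208 of all genes were called. In bulk tissue, fewer cells of a type and less RNA per cell cannot be told apart.

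**Figure D1:**
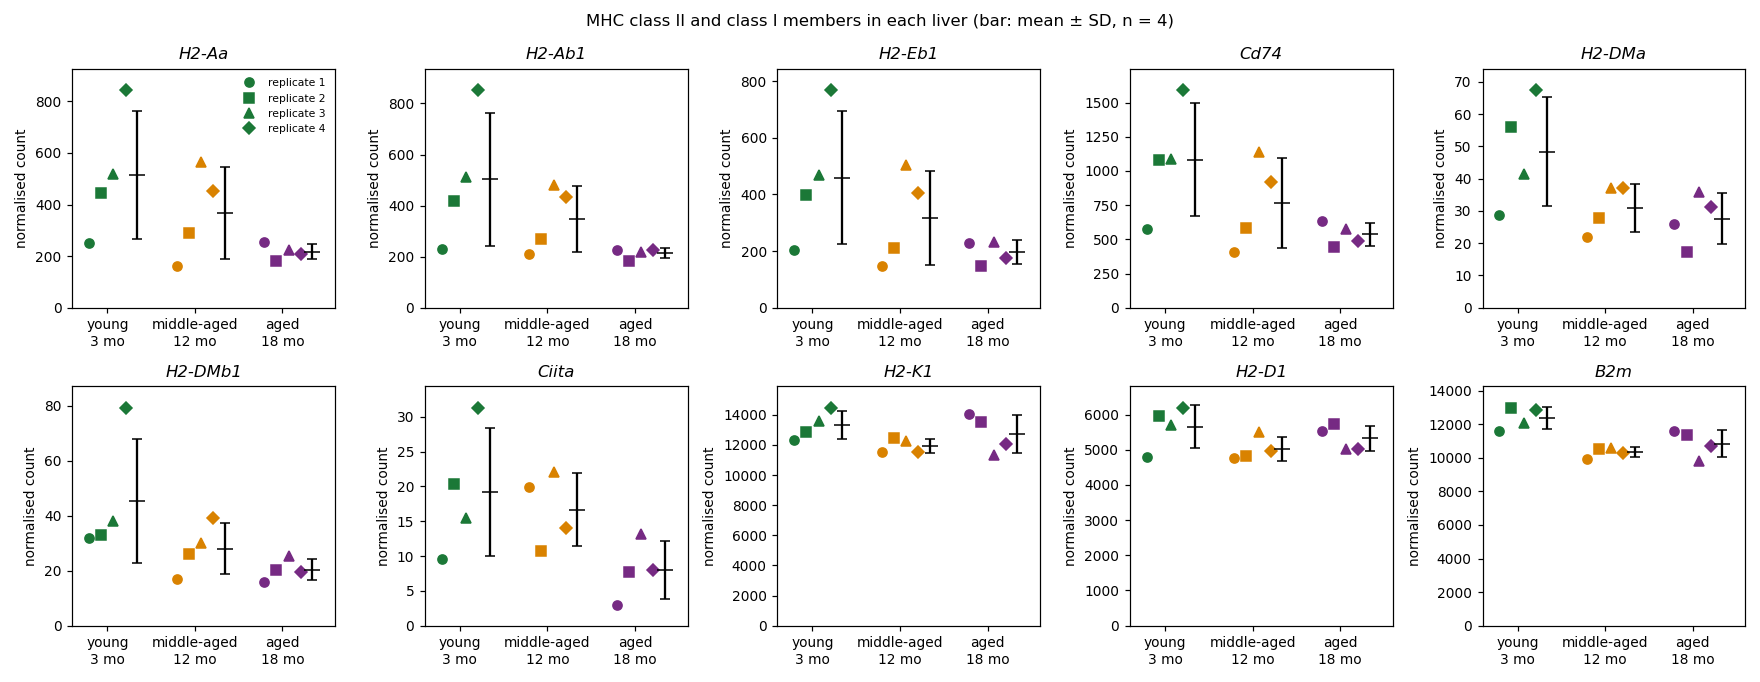
Normalised counts (vertical axes, each from 0) of the 10 genes in each of the 12 livers, by age in months. Points are livers with 1 symbol per replicate number, and black bars give the mean ± SD of 4 livers. The 7 class II genes spread widely in young livers, with replicate 4 highest, and lie lower in aged ones, whereas H2-K1, H2-D1 and B2m stay within narrow bands.

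H2-Ab1 (ENSMUSG00000073421, chr17:34257689-34269419, plus strand, GRCm38) had normalised counts of 228, 418, 513 and 851 in young replicates 1 to 4. The middle-aged livers had 209, 271, 479 and 432, and the aged livers 225, 184, 218 and 224. Every aged liver lay below every young liver, though the lowest young liver was only just above the highest aged one. Means were 503 ± 261, 348 ± 129 and 213 ± 19.4 (SD, n = 4). The aged level was 2.36-fold lower than the young one (log2 fold change -1.24, DESeq2 adjusted p = 0.00914, SE 0.33). The call was lost without young replicate 3 (DESeq2 adjusted p = 0.115), without young replicate 4 (0.0757) or without aged replicate 3 (0.138), and the log2 fold change was -0.86 without young replicate 4.

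Cd74 (ENSMUSG00000024610, chr18:60803848-60812652, plus strand) had 576, 1080.0, 1087 and 1589 normalised counts in the young livers. It had 410.1, 585, 1142 and 917 in the middle-aged and 635, 446, 578 and 491 in the aged livers. Young replicate 1 lay within the aged range, and the other 3 young livers lay above it. The means of 1083 ± 414 and 537 ± 85.1 (SD, n = 4) gave a log2 fold change of -1.01 for aged over young (DESeq2 adjusted p = 0.0310, SE 0.30), a 2.02-fold lower level. In 9 of the 12 fits that left out a liver the call was lost, with DESeq2 adjusted p between 0.0601 and 0.266. It was kept only without young replicate 1, middle-aged replicate 1 or middle-aged replicate 3. Scaling to total counts also ended it (log2 fold change -0.90, DESeq2 adjusted p = 0.130).

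The call of both genes also depended on the test. With edgeR's quasi-likelihood test on the 12099 genes that passed its expression filter, H2-Ab1 had an adjusted p of 0.0794 and Cd74 of 0.111, where 1.42% of genes were called. The livers were also split by replicate number into sets, replicates 1 and 2 of each age against replicates 3 and 4. The sets follow replicate number alone, and the sample titles name no batch. Within replicates 1 and 2 the log2 fold change of H2-Ab1 was -0.65 and that of Cd74 -0.61, neither called (DESeq2 adjusted p = 0.629 and 0.645). Within replicates 3 and 4 they were -1.63 and -1.33 (DESeq2 adjusted p = 9.77e-10 and 1.7e-09). Each set holds only 2 livers per age, so these p-values rest on a spread estimated from few livers. Replicates 3 and 4 also include young replicate 4, the highest liver for both genes. Whether the sets differ from each other was not tested. Without the livers that stood apart, young replicate 3 and middle-aged replicate 1, the log2 fold change was -1.23 for H2-Ab1 (DESeq2 adjusted p = 0.0165) and -1.01 for Cd74 (DESeq2 adjusted p = 0.0299).

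The genes of the other class II chains had log2 fold changes close to that of H2-Ab1 with larger SEs, and neither was called. H2-Aa (ENSMUSG00000036594, chr17:34282744-34287823, minus strand), which encodes the alpha chain of the A molecule, had 249, 446, 519 and 843 normalised counts in young, 162, 288, 565 and 452 in middle-aged and 253, 183, 224 and 210.1 in aged livers. Young replicate 1 was below aged replicate 1, so the groups overlapped. The log2 fold change for aged over young was -1.24 (DESeq2 adjusted p = 0.0778, SE 0.43), with means of 514 ± 247 and 217 ± 29.1 (SD, n = 4). Without young replicate 3 and middle-aged replicate 1 it passed the test, at -1.24 (DESeq2 adjusted p = 0.0129).

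H2-Eb1 (ENSMUSG00000060586, chr17:34305867-34316674, plus strand), the beta chain of the E molecule, had 203, 399, 469 and 767 normalised counts in young livers. In middle-aged livers it had 149, 212, 502 and 404, and in aged livers 229, 146, 232 and 177. Again young replicate 1 lay among the aged livers. The log2 fold change was -1.23 (DESeq2 adjusted p = 0.117, SE 0.46). C57BL/6 mice carry a defective gene for the E alpha chain, annotated as the pseudogene H2-Ea-ps, which had a count in 1 of the 12 livers, so a transcript for the E beta chain was measured without a transcript for its partner.

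The peptide exchange chaperone was at a lower level and followed the same order of means. H2-DMb1 (ENSMUSG00000079547, chr17:34153072-34160230, plus strand) had 31.8, 33.1, 37.9 and 79.1 normalised counts in young, 16.9, 26.0, 30.0 and 39.1 in middle-aged and 16.1, 20.2, 25.3 and 19.7 in aged livers. Its aged and young groups did not overlap, yet the difference did not pass the test (log2 fold change -1.17, DESeq2 adjusted p = 0.0540, SE 0.38). Groups that do not overlap were found for 7.53% of the genes tested in this comparison, 3.69% with the aged livers lower, and for 3 of the 10 members, H2-Ab1, H2-DMb1 and B2m.

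H2-DMa (ENSMUSG00000037649, chr17:34119541-34139101, plus strand) had 28.7, 56.0, 41.5 and 67.4 normalised counts in young, 21.8, 27.8, 37.1 and 37.1 in middle-aged and 26.1, 17.3, 35.8 and 31.3 in aged livers. Young replicates 1 and 3 were close to or within the range of the older livers. The log2 fold change for aged over young was -0.80 (DESeq2 adjusted p = 0.175, SE 0.33). H2-DMa shares 360 exonic bases with Brd2 on the opposite strand, a gene with a mean count of 821, and the strand setting of the counting is not given in the sources used here, so its reads and those of Brd2 may not be cleanly separated.

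Ciita (ENSMUSG00000022504, chr16:10480059-10528418, plus strand), the transactivator, had 9.55, 20.4, 15.4 and 31.2 normalised counts in young livers. The values were 19.9, 10.8, 22.1 and 14.0 in middle-aged and 3.01, 7.71, 13.1 and 8.05 in aged livers. The raw counts behind these were between 3 and 32, and young and aged livers overlapped. Its log2 fold change, -1.26 with SE 0.51, lay near those of H2-Ab1 and H2-Aa, with an adjusted p in DESeq2 of 0.160. Ciita shares 329 exonic bases with Dexi on the opposite strand, which had a mean count of 239.

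**Figure D2:**
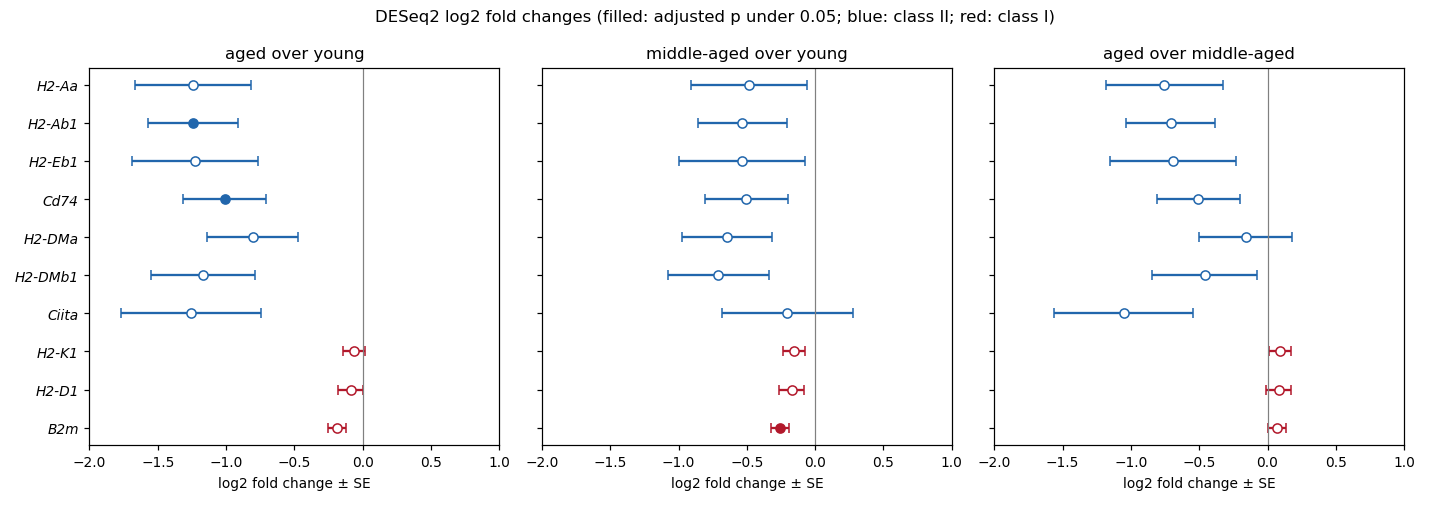
DESeq2 log2 fold changes (horizontal axes) with their SE for the 10 genes in the 3 pairs of ages, class II in blue and class I in red. Filled points passed an adjusted p of 0.05: H2-Ab1 and Cd74 in aged over young, and B2m in middle-aged over young.

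The median log2 fold change of the 7 class II genes was -1.23 for aged over young, beside -0.0003 over all genes tested. All 7 had an unadjusted p under 0.05 in this comparison, as did 15.9% of all genes tested, though 5 of them did not pass after adjustment. For middle-aged over young, their values lay between -0.20 (Ciita) and -0.71 (H2-DMb1) with a median of -0.53, all below 0 as were 48.9% of genes tested, and DESeq2 called 0 of 7, with 0 of 7 at an unadjusted p under 0.05, a level reached by 21.7% of genes, and 0 in edgeR on filtered genes, where edgeR called 2.31% of genes. For aged over middle-aged, 6 of the 7 had an adjusted p, all below 0, as were 48.8% of genes tested, with a median of -0.60. None was called in DESeq2, which called 1.14% of genes there (0.606% lower), or in edgeR on filtered genes, which called 0.107%, and 1, H2-Ab1, had an unadjusted p under 0.05, as did 9.94% of genes. Ciita had too few counts for an adjusted p there, and in none of the 10 members did the aged and middle-aged groups separate, as they did in 6.55% of genes, 3.28% with the aged livers lower. In a likelihood ratio test over the 3 ages, DESeq2 called H2-Ab1 (adjusted p = 0.0196) and not Cd74 (adjusted p = 0.0558), where 6.96% of genes were called. In edgeR on filtered genes 1.93% were called over the 3 ages, and no member. The pairs of ages share livers, so these results are not independent of each other.

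Class I genes lay within a much narrower range. H2-K1 (ENSMUSG00000061232, chr17:33996017-34000347, minus strand), a classical heavy chain, had 12304, 12889, 13578 and 14436 normalised counts in young livers. It had 11553, 12474, 12231 and 11557 in middle-aged and 14042, 13553, 11302 and 12048 in aged livers. The 3 groups overlapped. Its log2 fold change was -0.06 for aged over young (95% confidence interval -0.22 to 0.10, DESeq2 adjusted p = 0.795) and -0.15 for middle-aged over young (-0.32 to 0.01, adjusted p = 0.260).

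H2-D1 (ENSMUSG00000073411, chr17:35262730-35267499, plus strand), the other classical heavy chain of this strain, had 4797, 5952, 5693 and 6181 normalised counts in young, 4772, 4819, 5515 and 4977 in middle-aged and 5524, 5723, 5010.1 and 5025 in aged livers. These groups overlapped as well. The log2 fold change was -0.09 for aged over young (95% confidence interval -0.27 to 0.09, DESeq2 adjusted p = 0.718) and -0.17 for middle-aged over young (-0.35 to 0.01, adjusted p = 0.256). H2-K1, H2-D1 and the H2-Q genes are near-identical over long stretches, and how reads that fit several of them were counted is not given in the sources used here.

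B2m (ENSMUSG00000060802, chr2:122147686-122153083, plus strand), the light chain shared by all class I molecules, was the exception among the class I genes. It had 11615, 12956, 12057 and 12865 normalised counts in young, 9942, 10555, 10606 and 10287 in middle-aged and 11593, 11349, 9788 and 10675 in aged livers. All middle-aged and all aged livers lay below the lowest young liver, the closest of them, aged replicate 1, by a small margin. The middle-aged level was 1.20-fold lower than the young one (log2 fold change -0.26, DESeq2 adjusted p = 0.00579, SE 0.07), and this call held in all 12 fits that left out a liver, with DESeq2 adjusted p from 0.000898 to 0.0485. In that comparison 6.41% of genes were called, 2.9% with a lower level, and 16% had groups that did not overlap, 7.96% with the middle-aged livers lower. Without young replicate 3 and middle-aged replicate 1 together, the livers that stood apart, the adjusted p in DESeq2 was 0.144 at a log2 fold change of -0.25. In edgeR on filtered genes the adjusted p was 0.111. Within replicates 1 and 2 and within replicates 3 and 4 the log2 fold change was -0.26 in each (DESeq2 adjusted p = 0.759 and 0.156).

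For B2m the log2 fold change was -0.19 for aged over young (DESeq2 adjusted p = 0.0908, SE 0.07) and 0.07 for aged over middle-aged (adjusted p = 0.856). The likelihood ratio test over the 3 ages called it (DESeq2 adjusted p = 0.00986). Scaling to total counts, which moved the median of 11804 genes by 0.12 for middle-aged over young, gave -0.15 for B2m (DESeq2 adjusted p = 0.148), and relative to that median -0.26. Under the same scaling H2-K1 and H2-D1 turned to 0.05 and 0.03 for aged over young. Scaling to spike-in RNA, which moved the median by 1.47 for middle-aged over young, turned B2m to 1.21. There it was called higher (DESeq2 adjusted p = 0.00415), where 11701 of all genes were called. Relative to that median it lay at -0.25.

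The class II genes varied together from liver to liver. H2-Aa and H2-Ab1, whose products pair in the A molecule, had a ratio of normalised counts between 0.776 and 1.18 in the 12 livers (coefficient of variation 9.93%), while H2-Ab1 itself spanned a 4.63-fold range. The ratio of Cd74 to H2-Ab1 lay between 1.87 and 2.83, and that of H2-D1 to H2-K1 between 0.386 and 0.462, none of these ratios being corrected for length. The sum of H2-Aa, H2-Ab1, H2-Eb1 and Cd74 varied by 44.9% (coefficient of variation) among young, 44.4% among middle-aged and 14.5% among aged livers, with ranges of 1257 to 4051, 929 to 2689 and 959 to 1342. Differences in that spread between ages were not tested.

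**Figure D3:**
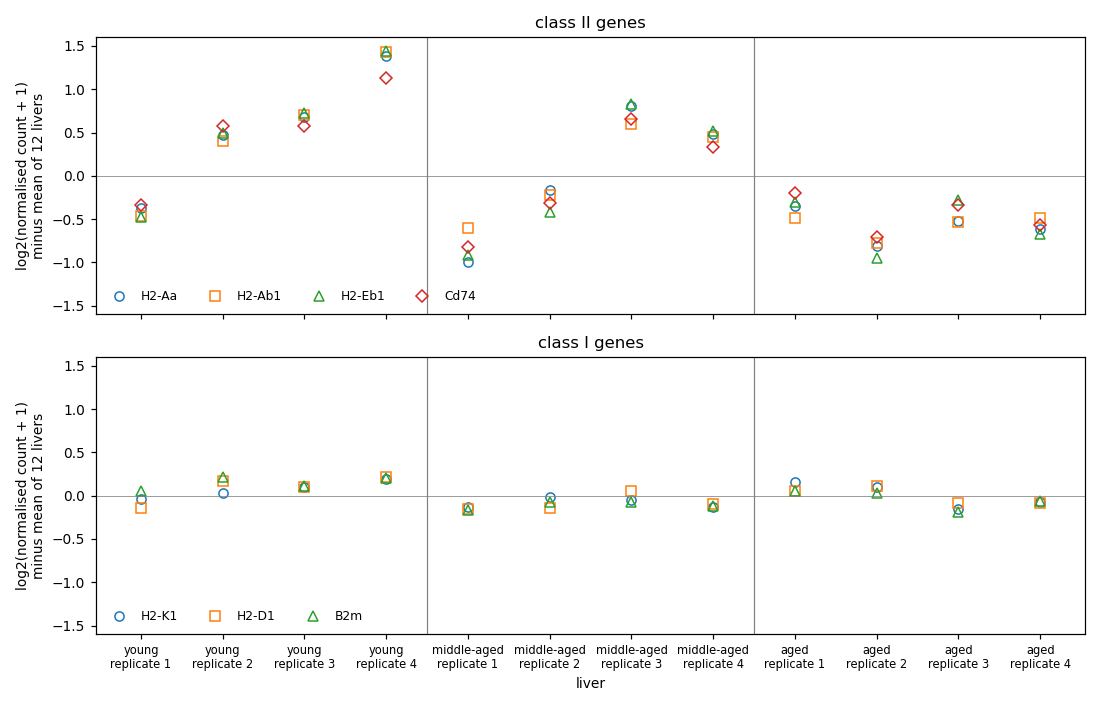
Deviation of log2(normalised count + 1) from the mean of 12 livers (vertical axes, the same scale in both panels), for 4 class II genes above and 3 class I genes below, with livers on the horizontal axis and grey lines between ages. Within a liver the 4 class II genes sit close together, farthest above the mean in young replicate 4, while class I genes stay near 0.

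Over the 12 livers Cd74 correlated with H2-Eb1 (Pearson r = 0.993, Spearman rho = 0.965), H2-Aa (r = 0.989, rho = 0.979) and H2-Ab1 (r = 0.966, rho = 0.930). Their permutation p-values for r, adjusted over the 12 relations computed, were 0.00024, 0.00024 and 0.00032, and those for rho 0.00024, 0.00024 and 0.00048. Livers were permuted across ages, and all of these genes had lower means in aged livers, so the difference between ages enters these relations. It also correlated with H2-DMa (r = 0.883, rho = 0.846, adjusted permutation p = 0.00042 and 0.00276) and H2-DMb1 (r = 0.844, rho = 0.713, adjusted permutation p = 0.00168 and 0.0198). Without the 2 livers farthest from the median of Cd74, r was 0.987 for H2-Eb1, 0.980 for H2-Aa, 0.944 for H2-Ab1, 0.853 for H2-DMa and 0.790 for H2-DMb1. Ciita was only loosely related to Cd74 (r = 0.591, rho = 0.622, adjusted permutation p = 0.0473 and 0.0457), and without those 2 livers the relation no longer held (r = 0.319, adjusted permutation p = 0.421).

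Within the 6 livers of replicates 1 and 2, r with Cd74 was 0.974 for H2-Aa, 0.927 for H2-Ab1, 0.995 for H2-Eb1, 0.950 for H2-DMa, 0.623 for H2-DMb1 and 0.151 for Ciita, none with an adjusted exact permutation p under 0.05. Within replicates 3 and 4 it was 0.996, 0.984, 0.998, 0.814, 0.884 and 0.924. Among class I genes, H2-K1 correlated with B2m (r = 0.819, rho = 0.818, adjusted permutation p = 0.00416 and 0.00470) and H2-D1 (r = 0.791, rho = 0.727, adjusted permutation p = 0.00636 and 0.0198). Without the 2 livers farthest from the median of H2-K1, r was 0.790 and 0.726. Within replicates 1 and 2 the values were 0.545 and 0.740, and within replicates 3 and 4 0.994 and 0.947.

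Genes other than the 10 members were then ranked for likeness of profile by Pearson r over the 12 livers, among 8881 genes whose normalised count averaged 50 or more. For the mean profile of H2-Aa, H2-Ab1, H2-Eb1 and Cd74 the first 8 were Serpinh1 (r = 0.881), Samhd1 (0.879), Tmsb10 (0.875), Ctss (0.853), Cnn2 (0.849), Col6a2 (0.844), Coro1a (0.842) and Cd52 (0.819). Ctss encodes cathepsin S, the protease that trims the invariant chain, Coro1a and Cd52 are leukocyte genes, and Serpinh1 and Col6a2 belong to collagen synthesis. For H2-K1, H2-D1 and B2m the first was the non-classical class I gene H2-T23 (r = 0.914), followed by Zcchc17 (0.904), Gatm (0.884), Aif1 (0.884), Erp29 (0.881), Stx18 (0.878), H13 (0.866) and Sars (0.858). These values describe the 12 livers, which share age and library differences.

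The remaining genes of both pathways were counted in lists, to be read against the 3.58% of all genes called for aged over young. Of 24 other class II genes and regulators, 23 were in the table and 21 were tested for aged over young. The list held the relatives of the H2 class II genes, the promoter factors Rfx5, Rfxap, Rfxank, Nfya, Nfyb, Nfyc and Creb1, lysosomal proteases and costimulatory receptors. DESeq2 called 1 of them, the lysosomal protease gene Ctsb, which was higher. Ctsb had 4857, 5410.2, 4662 and 4859 normalised counts in young and 6033, 5749.6, 5952 and 5759 in aged livers, groups that did not overlap. Its log2 fold change was 0.25 (DESeq2 adjusted p = 0.00608, SE 0.06), and the call was lost without young replicate 3 or aged replicate 3. The list's median was 0.004, and 0 of its genes were called in either of the other pairs of ages. At an unadjusted p under 0.05 were 4 of 17 tested for middle-aged over young, beside 21.7% of all genes. For aged over middle-aged it was 2 of 14, beside 9.94%.

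The B cell-associated relatives were at low counts with wide errors. H2-DMb2, the neighbouring copy of H2-DMb1, had 8.79 to 27.3 normalised counts in young, 9.88 to 45.0 in middle-aged and 10.6 to 21.1 in aged livers. H2-Ob and H2-Oa, which encode the inhibitor of the exchange chaperone, reached at most 31.8 and 11.5. All 3 were highest in middle-aged replicate 3, and their log2 fold changes for aged over young were -0.11 (SE 0.56), -0.06 (SE 0.65) and -1.08 (SE 1.12), none called in DESeq2 (adjusted p = 0.959, 0.983 and 0.718).

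Among 25 other class I heavy chains and relatives, 23 were in the table and 16 were tested for aged over young, of which H2-Q7 was called lower and Cd1d1 higher. H2-Q7, a non-classical heavy chain, had 497, 585, 620 and 583 normalised counts in young, 437, 459, 474 and 430 in middle-aged and 441, 444, 350 and 451 in aged livers. Every middle-aged and aged liver lay below every young one. Its log2 fold change was -0.44 for aged over young (DESeq2 adjusted p = 0.00361, SE 0.11) and -0.34 for middle-aged over young (adjusted p = 0.0290, SE 0.11). The first call held in all 12 fits that left out a liver. The second was lost without any single middle-aged liver and without young replicate 2, 3 or 4, with a DESeq2 adjusted p up to 0.164.

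Cd1d1, which presents lipids to natural killer T cells, had 1581 to 1749 normalised counts in young, 1817 to 2179.9 in middle-aged and 1894 to 2044 in aged livers. The young livers lay below all others. The log2 fold change was 0.24 (DESeq2 adjusted p = 0.0271) for aged over young and 0.23 (DESeq2 adjusted p = 0.0284) for middle-aged over young. The first call was lost without any single young liver, middle-aged replicate 1 or aged replicate 2, 3 or 4. The second was lost without any single young liver, middle-aged replicate 1, 2 or 3 or aged replicate 2 or 4. H2-Q10, the soluble class I product of the liver, had 22442 to 28374 normalised counts in the 12 livers, and its log2 fold change for aged over young was 0.02 (95% confidence interval -0.12 to 0.17, DESeq2 adjusted p = 0.932).

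All 14 genes of class I peptide loading were tested, among them the transporter genes Tap1 and Tap2, tapasin, the immunoproteasome subunits and Nlrc5, the class I transactivator. DESeq2 called 1, Psmb9, an immunoproteasome subunit. Psmb9 had 195, 245, 177 and 240.2 normalised counts in young and 192, 133, 103 and 114 in aged livers, and the groups overlapped through aged replicate 1. Its log2 fold change was -0.66 (DESeq2 adjusted p = 0.0457, SE 0.21), a call kept in 2 of the 12 fits that left out a liver, those without young replicate 3 or aged replicate 1. For Nlrc5 the log2 fold change was -0.39 (DESeq2 adjusted p = 0.310, SE 0.20) and for Tap1 -0.06 (adjusted p = 0.900, SE 0.14). None of the 14 was called for middle-aged over young or for aged over middle-aged in DESeq2. In each, 2 had an unadjusted p under 0.05, beside 21.7% and 9.94% of all genes in turn.

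Interferon gamma signalling was examined because it drives both classes. Of 25 listed genes, receptors, kinases, transcription factors and induced GTPases and chemokines, 24 were tested for aged over young. Of these, 23 had a log2 fold change below 0, beside 50.1% of all genes, with a median of -0.27. However, DESeq2 called 0 of them, beside 3.58% of all genes, and 5 had an unadjusted p under 0.05, beside 15.9%. For middle-aged over young 18 of 23 were below 0, beside 48.9% of all genes, with a median of -0.31. At an unadjusted p under 0.05 were 8 of the 23, beside 21.7% of all genes. DESeq2 called 1, where 6.41% of all genes were called. This was the GTPase gene Irgm1 (log2 fold change -0.53, DESeq2 adjusted p = 0.00310, SE 0.13), called in all 12 fits that left out a liver. For aged over middle-aged 8 of 18 were below 0, beside 48.8% of all genes, with a median of 0.07. Irf1, an interferon-induced transcription factor, had a log2 fold change of 0.23 for aged over young (DESeq2 adjusted p = 0.802, SE 0.31).

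The liver with the most class II transcript, young replicate 4, was also the liver in which most of these induced genes were highest. All 7 class II members peaked there, which follows largely from picking this liver by its class II level, as these genes varied together. Of the 23 interferon gamma genes whose normalised count averaged 10 or more, 13 were also highest there. Of all 11804 genes at that level, 4.9% were. Whether these 13 genes vary independently of each other was not tested. The chemokine gene Cxcl9, named after its values were seen, had 489 normalised counts in that liver and 66.2 to 130.3 in the other 11, and Gbp2, likewise, 338 against 70.5 to 242. Ifng itself had a count in 2 livers, young replicate 4 and middle-aged replicate 4. The part of interferon gamma in the difference between ages was not tested.

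Cell type markers were summed in each liver to set beside the class II values. The 12 T and NK cell markers summed to 78.5 to 121 normalised counts in young, 68.2 to 93.6 in middle-aged and 42.8 to 51.8 in aged livers, so aged livers lay below all others. Of 8 tested for aged over young, all 8 were below 0, beside 50.1% of all genes, and none was called in DESeq2, with 4 at an unadjusted p under 0.05, beside 15.9% of all genes. The log2 fold change was -1.03 for Cd4 (DESeq2 adjusted p = 0.106, SE 0.38) and -1.17 for Lck (adjusted p = 0.166, SE 0.48), while Cd3d, Cd3e, Cd8a, Cd8b1, Klrb1c, Ncr1 and Gzma had at most 3 counts in 6 or more livers. The summed markers correlated with Cd74 (r = 0.796, rho = 0.706, adjusted permutation p = 0.00511 and 0.0198), with r = 0.762 without the 2 livers farthest from the median of Cd74, 0.680 within replicates 1 and 2 and 0.900 within replicates 3 and 4. Livers were permuted across ages, and both Cd74 and these sums were lower in aged livers. This relation can therefore not be told apart from the difference between ages.

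The summed markers of B cells, Kupffer cells and dendritic cells overlapped between young and aged livers. The 12 B cell markers summed to 88.8 to 315 in young, 76.5 to 544 in middle-aged and 104 to 224 in aged livers, with the highest sum in middle-aged replicate 3 and a low one in young replicate 4. Their correlation with Cd74 was r = 0.385 (rho = 0.427, adjusted permutation p = 0.271 and 0.206). Of the fits that left out a liver, only that without young replicate 4 passed the test (r = 0.696, rho = 0.700, adjusted permutation p = 0.0270 and 0.0377). In the others r lay between 0.235 and 0.468. The 12 Kupffer cell and macrophage markers summed to 3959 to 7206, 3497 to 4751 and 4089 to 6814, with r = 0.327 (rho = 0.259, adjusted permutation p = 0.326 and 0.452). Without the 2 livers farthest from the median of Cd74, r was 0.588 and 0.300 in turn, and within replicates 1 and 2 and within replicates 3 and 4 it was 0.331 and 0.060 for B cells and 0.648 and 0.318 for Kupffer cells. Of 11 macrophage markers tested for aged over young, 9 were below 0 and 2 above, with a median log2 fold change of -0.09. Of all genes, 50.1% were below 0 there. For middle-aged over young 10 of 11 were below 0, beside 48.9% of all genes, and for aged over middle-aged all 11 were above. The scavenger receptor gene Marco was called higher for aged over young (log2 fold change 2.46, DESeq2 adjusted p = 0.0178), the 1 call among the 11 and against the direction of most of them. It was lost without young replicate 1, 2 or 3 or aged replicate 4, and aged replicate 1 had 791 normalised counts of Marco against 96.1 to 261 in the other aged livers. Without aged replicate 1 the log2 fold change was 1.43.

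The sum of 12 dendritic cell markers (970.5 to 1110.0 in young, 1212 to 1424 in middle-aged and 834 to 1326 in aged livers) was mostly Dpp4, which hepatocytes also express and which alone had 768 to 1337 normalised counts. The correlation of this sum, and so mainly of Dpp4, with Cd74 was near 0 (r = -0.012, rho = -0.014, adjusted permutation p = 0.954 and 0.975). Xcr1, Cd209a, Clec10a and Mgl2 had at most 3 counts in 6 or more livers. Itgax, the CD11c gene, had 5.31 to 14.6 in young, 5.30 to 15.0 in middle-aged and 2.62 to 5.78 in aged livers, with a log2 fold change of -1.37 for aged over young (DESeq2 adjusted p = 0.240, SE 0.63). Of 10 dendritic cell markers tested there, 8 were below 0, beside 50.1% of all genes, with a median log2 fold change of -0.84. None was called in DESeq2 and 3 had an unadjusted p under 0.05, beside 15.9% of all genes.

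**Figure D4:**
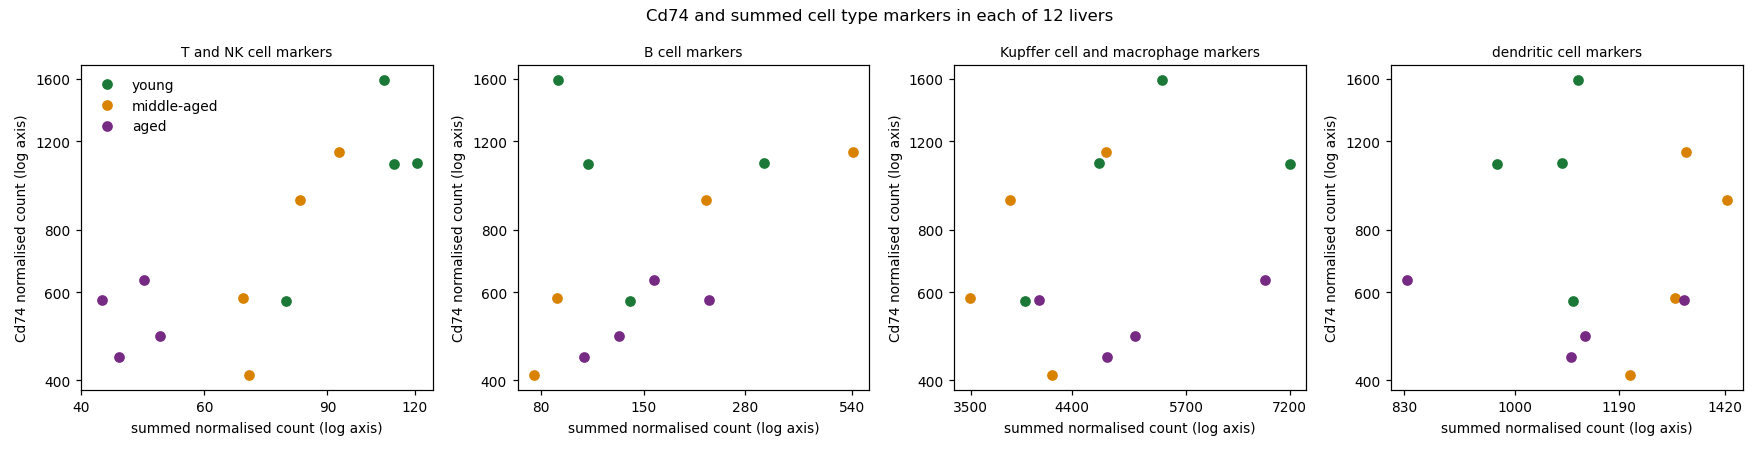
Normalised count of Cd74 (vertical, log axis) against the summed normalised count of cell type markers (horizontal, log axis) in each of 12 livers, coloured by age, for 4 marker lists. Aged livers sit lowest on the T and NK cell axis, and young replicate 4, the highest Cd74 point, sits low on the B cell axis.

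Other cells were measured with the same lists. Summed monocyte markers were 801 to 1592 in young, 734 to 3706 in middle-aged and 810.1 to 1538 in aged livers, and sinusoidal endothelial markers 1918 to 3322, 2006 to 2386 and 2152 to 2342. For aged over young, all 8 monocyte markers and 6 of 8 endothelial markers tested were below 0, beside 50.1% of all genes. Their median log2 fold changes were -0.29 and -0.18. None of either list was called in DESeq2 for any pair of ages. At most 2 genes of a list had an unadjusted p under 0.05, where 9.94% to 21.7% of all genes did, depending on the pair. Neutrophil markers summed to 31.2 to 290.4, 6.95 to 30.1 and 12.5 to 90.3, with 1 of 6 genes tested for aged over young and not called. Cholangiocyte markers summed to 280.2 to 354, 120.1 to 454 and 226 to 418, and Sox9 alone of that list was called, higher for aged over young (log2 fold change 0.86, DESeq2 adjusted p = 0.0169) and for aged over middle-aged (0.95, adjusted p = 0.0117). The other cholangiocyte markers tested were all below 0, 4 for aged over young and 3 for aged over middle-aged. The first Sox9 call was lost without young replicate 1 or 4 or aged replicate 2, 3 or 4, and the second without middle-aged or aged replicate 2, 3 or 4. Of 6 hepatocyte markers none was called for any pair of ages. The part of these cells in the class II differences was not tested.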

How the data were processed

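The authors deposited 1 table of raw counts, whole numbers of reads per gene for 53465 genes and 92 spike-in transcripts in 12 livers, with no normalisation. Per the submitters' processing notes the tools were STAR 2.5.2b, SAMtools 1.9, featureCounts, R 3.6.3, edgeR 3.28.1 and DESeq2 1.26.0, with the builds mm10 and GRCm38. How reads with several matches or on either strand were counted is not given in the sources used here, which bears on the near-identical class I genes and on H2-DMa and Ciita. Age and replicate number came from the sample titles. Symbols, positions and exonic lengths came from GENCODE M21 (GRCm38), which held 53360 of the identifiers.

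Spike-in rows were set aside. The 28449 genes with at least 1 count were fitted with DESeq2 1.42.0 in R 4.3.3 on age alone over all 12 livers, by the Wald test for pairs of ages and the likelihood ratio test for the 3 ages, with Benjamini-Hochberg adjustment and default independent filtering. The 95% confidence intervals of log2 fold changes are Wald intervals from the SE. Correlations used log2(normalised count + 1), 100000 permutations across livers of all ages (exact for 6 livers) and adjustment over 12 relations. edgeR 4.0.16 gave the alternative test. The scripts were tested on simulated data.

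All members are named. From the lists of relatives, genes past the threshold in a pair of ages were named, up to 4 per list and pair, with the paralogues of members, and the 8 genes most like each profile. Nlrc5, Tap1, Irf1, Cxcl9, Gbp2 and single cell type markers fell outside this rule and were chosen after their values were seen. The members and lists were chosen with earlier results of these data known. No 2 livers of an age agreed within sampling noise, the smallest chi-square per gene being 11.2 over 8888 genes, so each counted as 1 replicate.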

Additional observations from a re-analysis of the deposited data

Results flagged for a closer look

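Within an age, a liver was looked at again where its gap to the nearest other liver, divided by the range of the 4, exceeded the 95% critical value of Dixon's test. Chance gives 3.45 such livers in the 69 groups examined, and 5 were found. H2-DMb1 had 79.1 normalised counts in young replicate 4 against 31.8 to 37.9 in the other young livers. Summed neutrophil markers were 290.4 in young replicate 2 against 31.2 to 45.6, and 90.3 in aged replicate 1 against 12.5 to 18.8. Young replicate 3 had 22284 genes detected, where the other young livers had 16361 to 16579. Summed sinusoidal endothelial markers were 2386 in middle-aged replicate 2 against 2006 to 2047. The spike-in transcripts, outside the genes compared, made up at least 1.589% of counts in every library.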

How the results depend on the processing

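Members called in DESeq2 numbered 2 for aged over young, 1 for middle-aged over young, 0 for aged over middle-aged and 2 over the 3 ages. Of all genes, 484, 727, 117 and 865 were called in turn. In that order, edgeR on all genes called 5, 4, 4 and 5 members, beside 880, 1154, 446 and 1494 of all genes. However, its prior degrees of freedom were infinite there, so no gene kept a spread of its own. On genes passing edgeR's filter, an alternative chosen after seeing the data, it called 0 members in each, with or without the replicate block. Of all genes it called 172, 280, 13 and 234 without the block and 72, 119, 14 and 92 with it. Replicate numbers do not pair the livers, which are different animals whose deviations correlated between -0.303 and 0.159. The DESeq2 replicate block gave 4, 0, 0 and 4, beside 655, 385, 426 and 451 of all genes. The edgeR block gave 5, 4, 3 and 5, beside 764, 1002, 354 and 1240. For aged over young, independent filtering off gave 1 member (321 of all genes), only the 2 ages 4 (289) and the replicate set as covariate 5 (501). Replicates 1 and 2 alone gave 0 (139), replicates 3 and 4 alone 4 (479) and total counts 1 (787). For middle-aged over young, 0 were called within either set, without both livers that stand apart and with total counts. In turn 251, 306, 272 and 1000 of all genes were. With spike-in scaling 4 were called, all higher (B2m, H2-K1, H2-D1 and Cd74), beside 11701 genes. Within replicates 3 and 4, 4 members were called for aged over middle-aged, beside 306 of all genes. Over 3 ages the count filter gave 1 member (861 of all genes) and the set covariate 6 (884). Replicates 1 and 2 alone gave 0 (270), replicates 3 and 4 alone 4 (637) and total counts 1 (1155). Leaving out 1 liver gave 0 to 5 for aged over young, 1 to 2 for middle-aged over young and 0 to 5 over 3 ages. Of all genes, 237 to 1291, 345 to 1096 and 503 to 1637 were called in turn. The cause of these shifts was not tested.

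Spike-in scaling, also chosen after seeing the data, moved the median of 11804 genes by 1.16, 1.47 and -0.31 for aged over young, middle-aged over young and aged over middle-aged, and turned directions with it. For aged over young, log2 fold changes became 0.15 (Cd74), 0.41 (H2-DMa), 0.021 (Ciita), 1.06 (H2-K1), 1.08 (H2-D1), 0.96 (B2m), 0.71 (H2-Q7) and 0.44 (Psmb9). For middle-aged over young they became 1.0 (H2-Aa), 0.92 (H2-Ab1), 0.95 (H2-Eb1), 1.02 (Cd74), 0.87 (H2-DMa), 0.65 (H2-DMb1), 1.31 (Ciita), 1.30 (H2-K1), 1.32 (H2-D1), 1.21 (B2m), 1.15 (H2-Q7) and 0.93 (Irgm1). For aged over middle-aged they were -0.24 (H2-K1), -0.24 (H2-D1) and -0.26 (B2m). H2-K1, H2-D1 and B2m were called higher for aged over young, and together with Cd74 for middle-aged over young. H2-Ab1 was at -0.13 for aged over young, and neither it nor Cd74 was called there. Relative to the median they were at -1.30 and -1.01. Total counts moved the median by 0.12 in aged over young and turned H2-K1 to 0.048 and H2-D1 to 0.026.

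Within replicates 1 and 2, H2-K1 (0.14) and H2-D1 (0.070) turned for aged over young, Ciita (0.042) for middle-aged over young, and H2-Eb1 (0.056) and Cd74 (0.12) for aged over middle-aged. Within replicates 3 and 4, H2-K1 (-0.020), H2-D1 (-0.057) and B2m (-0.023) turned for aged over middle-aged. Leaving out a liver gave -0.43 to 0.15 for Ciita in middle-aged over young and -0.31 to 0.0094 for H2-DMa in aged over middle-aged. Correlations with Cd74 that were no longer called within replicates 1 and 2 were 0.974 (H2-Aa), 0.927 (H2-Ab1), 0.995 (H2-Eb1), 0.950 (H2-DMa), 0.623 (H2-DMb1), 0.151 (Ciita) and 0.680 (T and NK cell markers), and those with H2-K1 were 0.740 (H2-D1) and 0.545 (B2m). The T and NK value within replicates 3 and 4, 0.900, and that of Ciita without the 2 farthest livers, 0.319, were not called either. Leaving out a liver gave 0.440 to 0.779 for Ciita, 0.235 to 0.696 for B cell and -0.126 to 0.0996 for dendritic cell markers.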
